A study of Nothobranchius furzeri with 18 samples.

Results

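The genes described here encode the vestigial-like (Vgll) cofactors, the Tead transcription factors and the coactivator Yap in cultured tail fibroblasts of the African turquoise killifish, Nothobranchius furzeri. They were chosen by name from the 25099 genes measured, and 8 are described: vgll3, vgll4, vgll4a (LOC107391090), yap1, tead1, tead1a (LOC107389211), tead3 and tead3a (LOC107390951). All 8 passed the filter on low counts and were tested among 16354 genes. The names of the LOC identifiers are taken from RefSeq genes of assembly NfurGRZ-RIMD1. That table also names tead1b, tead3b and vgll4b, under identifiers that the count data do not hold. It does not pair them with the symbols tead1, tead3 and vgll4.

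RNA was sequenced from primary cells grown out of fish tails. The cells were wild type (WT), homozygous for a mutation in exon 1 of vgll3 (exon 1 cells), or homozygous for a mutation in exon 3 of vgll3 (exon 3 cells), and no group received a treatment according to the labels. There were 18 libraries from 10 samples, called cultures here: exon 1 cultures 3, 4 and 6, exon 3 cultures 1, 3 and 4, and WT cultures F1, F9, F4 and FM. Each culture had a pair of technical libraries, A and B, except WT F1 and F9 with 1 library each, and nothing in the labels says whether different fish were used for them, so the spread between cultures behind each p-value may be technical. Library names in the labels carry the word KD for exon 1 cells and null for exon 3 cells, with no explanation. The labels give neither the age of the fish nor the DNA change of either mutation. A change within an exon can leave the count of the gene as it was, so the vgll3 level is no check of genotype by itself.

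Tead proteins bind DNA and depend on cofactors to act on transcription. Yap, when Hippo kinases do not hold it in the cytoplasm, is their best known coactivator. Vestigial-like proteins bind Teads through a short Tondu motif. In mammals VGLL4 competes with YAP for TEAD proteins and dampens their output, while VGLL3 binds TEADs and has been studied in fat, muscle and skin cells. In Atlantic salmon the vgll3 locus is associated with age at maturity. The 3 vgll genes, yap1 and the 4 tead genes measured here thus hold competing cofactors and their shared DNA-binding partners. Teleosts kept duplicates of many such genes, and the suffix a marks one copy of a pair.

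Library totals ran from 15236208 to 28146560 counts. Many fibroblast genes were abundant, with prrx1 at 246 to 391 CPM and pdgfra at 101 to 199 CPM over the cultures. Of 19 fibroblast marker genes, 3 stayed under 1 CPM in every culture. These were vim, at no more than 0.593 CPM, postn and postnb (LOC107380231). The gene listed as fbln1 reached no more than 1.57 CPM, but LOC107395698, also named fbln1, stood at 267 to 586 CPM. Here CPM, the unit of all levels, is the count relative to the library total. Levels of marker genes are given without further scaling. All other levels are after TMM scaling, which offsets differences in composition between libraries. The summed level of 9 osteoblast marker genes was 9698 CPM in exon 3 culture 3 and 647 to 2973 CPM in the other cultures. That culture stands apart from the rest, as does exon 1 library 3A, and in WT F4 and FM library A differs from library B in several members. For vgll3 and for some of the other values they move, results are given with and without them.

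The mutated gene was the member with the clearest difference between genotypes. In WT, vgll3 stood at 316 CPM in F1, 262 CPM in F9, 333 CPM in F4 and 312 CPM in FM. In exon 1 cells it was 266, 206 and 262 CPM in cultures 3, 4 and 6. In exon 3 cells it was 119, 103 and 99.9 CPM in cultures 1, 3 and 4. Every exon 3 culture, and every exon 3 library, lay below all exon 1 and WT values, while the exon 1 and WT ranges overlapped. The exon 3 mean was 35.1% of the WT mean and 43.9% of the exon 1 mean, and the exon 1 mean was 80.1% of the WT mean. In bulk RNA, fewer cells that express a gene and less RNA per cell cannot be told apart.

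Tested with edgeR's quasi-likelihood F test and adjusted over all genes, vgll3 fell in exon 3 cells against WT by 1.51 ± 0.14 on the log2 scale (SE; adjusted p = 0.00294), with a 95% interval of the log2 fold change from -1.83 to -1.19. At the threshold of 0.05 for an adjusted p, 0.238% of all genes were called in that comparison. The call was made in all 19 alternative analyses, with log2 fold changes from -1.59 to -1.43, the last with F1 and F9 as the only WT cultures. Exon 1 cells did not pass against WT (log2 fold change -0.32 ± 0.14, SE; edgeR unadjusted p = 0.0423, adjusted p = 0.565), where 0.159% of genes were called. The 95% interval ran from -0.63 to -0.01, and 8.48% of all genes had an unadjusted p under 0.05 there. The mutants did not pass against each other (-1.19 ± 0.15, SE; edgeR adjusted p = 0.0518), where 0.0122% of genes were called. That value lay close to the threshold, and it passed in 6 of 21 alternative analyses. It passed, for example, without exon 1 library 3A (edgeR adjusted p = 0.0492), without WT F9 (edgeR adjusted p = 0.045) and with DESeq2 (adjusted p = 2.82e-11). It did not pass, for example, without exon 3 culture 4 (edgeR adjusted p = 0.279) or with the 2 genotypes fitted alone (edgeR adjusted p = 0.34). The comparison between the mutants uses the same exon 3 cultures as that with WT.

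Summed endothelial and epidermal markers had WT ranges that did not overlap those of either mutant, mostly through kdrl and krt8. In TMM-scaled CPM, which the marker levels are not, such ranges were found for 9.28% of all genes in exon 1 cells and 13.9% in exon 3 cells against WT. The sums were not tested. The summed level of the 8 endothelial markers was 274 to 383 CPM in WT, 117 to 204 CPM in exon 1 cells and 103 to 164 CPM in exon 3 cells. Most of it was kdrl, a receptor for vascular endothelial growth factor, at 255.5 to 370.4 CPM in WT and 80.5 to 177 CPM in the mutants. Next came cdh5, the adhesion protein VE-cadherin, at 6.17 to 25.1 CPM over the cultures, with overlap between all genotypes. The other 6 endothelial markers, among them pecam1a, pecam1b and tie1, were each at or below 1.13 CPM in every culture. The 10 epidermal markers summed to 6427 to 7087 CPM in WT, 8130 to 9077 CPM in exon 1 cells and 7488 to 11973 CPM in exon 3 cells, almost all of it krt8. Of the other 9, ppl reached 11.2 CPM, evpl 7.92 CPM, cldni 7.7 CPM, tp63 4.01 CPM, epcam 3.84 CPM and cdh1 0.591 CPM at their highest. Whether endothelial or epidermal cells had a part in the vgll3 difference was not tested. Without exon 3 culture 3, vgll3 was also called in exon 3 cells, as in each of the other 9 analyses that left out 1 culture.

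**Figure D1:**
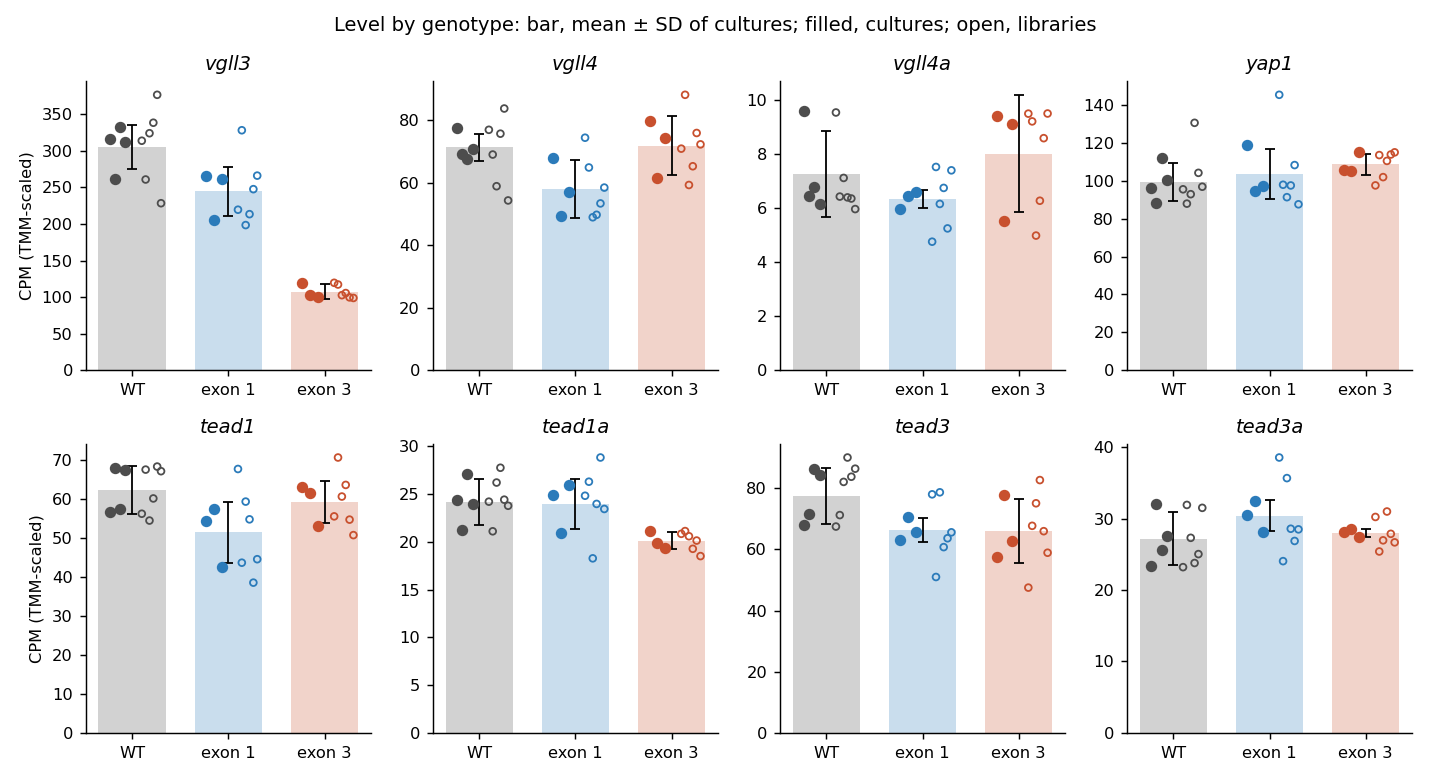
Levels of the 8 genes in CPM (vertical axes, from 0) in WT, exon 1 and exon 3 cells. Bars and error bars are the mean and SD over 4, 3 and 3 cultures, filled points are cultures and open points libraries. The exon 3 points of vgll3, at 98.9 to 120 CPM by library, lie below all others, and in the other 7 panels the libraries of the genotypes overlap.

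Of the other vestigial-like genes, vgll4 was well expressed and vgll4a was the least counted member. In WT, vgll4 stood at 77.4, 69.3, 67.5 and 70.7 CPM in F1, F9, F4 and FM. In exon 1 cells it stood at 67.8, 49.4 and 57.1 CPM, and in exon 3 cells at 79.6, 61.4 and 74.4 CPM. The lowest values were those of exon 1 cultures 4 and 6, and the ranges of all 3 genotypes overlapped. The log2 fold change of vgll4 was -0.29 ± 0.13 in exon 1 cells against WT (SE; edgeR adjusted p = 0.591) and 0.01 ± 0.13 in exon 3 cells against WT (SE; edgeR adjusted p = 0.978). In exon 3 cells against exon 1 cells it was 0.31 ± 0.14 (SE; edgeR unadjusted p = 0.0551, adjusted p = 0.597).

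The paralog vgll4a was measured at 5.95, 6.43 and 6.6 CPM in exon 1 cells, at 9.4, 5.51 and 9.11 CPM in exon 3 cells and at 9.58, 6.44, 6.77 and 6.14 CPM in WT. Exon 3 cultures 1 and 4 and WT F1 were its 3 highest cultures, and exon 3 culture 3 was its lowest. It rested on 78 to 228 counts per library, and its biological coefficient of variation, 0.218, was the highest among the members. Although the common value over all genes was 0.248, 58.2% of genes had a lower coefficient than vgll4a. The log2 fold change against WT had 95% intervals from -0.67 to 0.29 in exon 1 cells and from -0.33 to 0.63 in exon 3 cells. Changes of that size in either direction were therefore not resolved. The related vgll1, vgll2, vgll2b (LOC107392207) and vgll4l (LOC107393651) had 4, 10, 3 and 0 counts over all 18 libraries. No library held more than 3 counts of any of them.

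Transcripts of yap1 were counted at 119, 94.4 and 97.2 CPM in exon 1 cells, at 106, 105 and 115 CPM in exon 3 cells and at 96.1, 88.3, 112 and 100.4 CPM in WT. The genotypes overlapped throughout. The highest exon 1 value, in culture 3, came from library 3A at 145 CPM, with 97.9 CPM in its partner 3B. The log2 fold change of exon 1 cells against WT was 0.06 ± 0.12 (SE; edgeR adjusted p = 0.956) and turned to -0.06 without library 3A. For exon 3 cells it was 0.13 ± 0.12 (SE; edgeR adjusted p = 0.688), with a 95% interval from -0.14 to 0.4.

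Among the Tead genes, tead1 and tead3 carried most of the counts. The level of tead1 was 54.3, 57.3 and 42.6 CPM in exon 1 cells, 63.1, 61.4 and 52.9 CPM in exon 3 cells and 56.5, 67.7, 57.5 and 67.3 CPM in WT. The level of tead3 was 62.9, 70.5 and 65.6 CPM in exon 1 cells, 57.5, 77.8 and 62.6 CPM in exon 3 cells and 67.9, 71.5, 86.4 and 84.3 CPM in WT. Each was highest in a WT culture, and the ranges overlapped between all genotypes. The log2 fold changes in exon 1 cells against WT were -0.28 ± 0.13 for tead1 (SE; edgeR adjusted p = 0.613) and -0.22 ± 0.13 for tead3 (SE; edgeR adjusted p = 0.729).

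The paralogs of these genes, encoding Tead proteins of the same family, were counted less. The level of tead3a was 30.5, 32.5 and 28.2 CPM in exon 1 cells, 28.1, 28.5 and 27.4 CPM in exon 3 cells and 23.3, 32.1, 25.6 and 27.6 CPM in WT. Its exon 3 and exon 1 ranges both overlapped the WT range. The level of tead1a was 24.9, 20.9 and 25.9 CPM in exon 1 cells, 21.1, 19.8 and 19.4 CPM in exon 3 cells and 24.3, 21.2, 27.1 and 24 CPM in WT. The 3 exon 3 cultures of tead1a lay below the 4 WT cultures, by a narrow gap between 21.1 CPM in exon 3 culture 1 and 21.2 CPM in WT F9. Single libraries overlapped, with 18.5 to 21.1 CPM in exon 3 cells against a WT minimum of 21.1 CPM. The log2 fold change of tead1a in exon 3 cells against WT was -0.26 ± 0.12 (SE; unadjusted p = 0.0437, edgeR adjusted p = 0.393) and did not pass.

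None of the 7 members besides vgll3 passed the edgeR test in any of the 3 comparisons. DESeq2 called none of the 7 either, and over all genes it called 1.55% in exon 1 cells against WT, 3.10% in exon 3 cells against WT and 1.07% between the mutants. At an unadjusted p under 0.05 edgeR gave 0 of the 7 in exon 1 cells against WT, where 8.48% of all genes had such a p. It gave 1, tead1a, in exon 3 cells against WT, where 12.3% did, and 0 between the mutants, where 8.48% did. Ranges of cultures that do not overlap were found in 0, 2 and 1 of the 8 members in these 3 comparisons, against 9.28%, 13.9% and 11.2% of all genes. These are vgll3 in both comparisons of exon 3 cells and tead1a in exon 3 cells against WT, so that besides vgll3 it was 1 of 7 genes in 1 comparison, a share near that of all genes. Log2 fold changes of the 7 ran from -0.29 to 0.16 in exon 1 cells and from -0.26 to 0.15 in exon 3 cells, both against WT. Between the mutants they ran from -0.25 to 0.34. The widest 95% intervals of the 7 reached -0.67 and 0.85, so that a loss of the size seen for vgll3 in exon 3 cells lay outside the intervals of each of them.

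**Figure D2:**
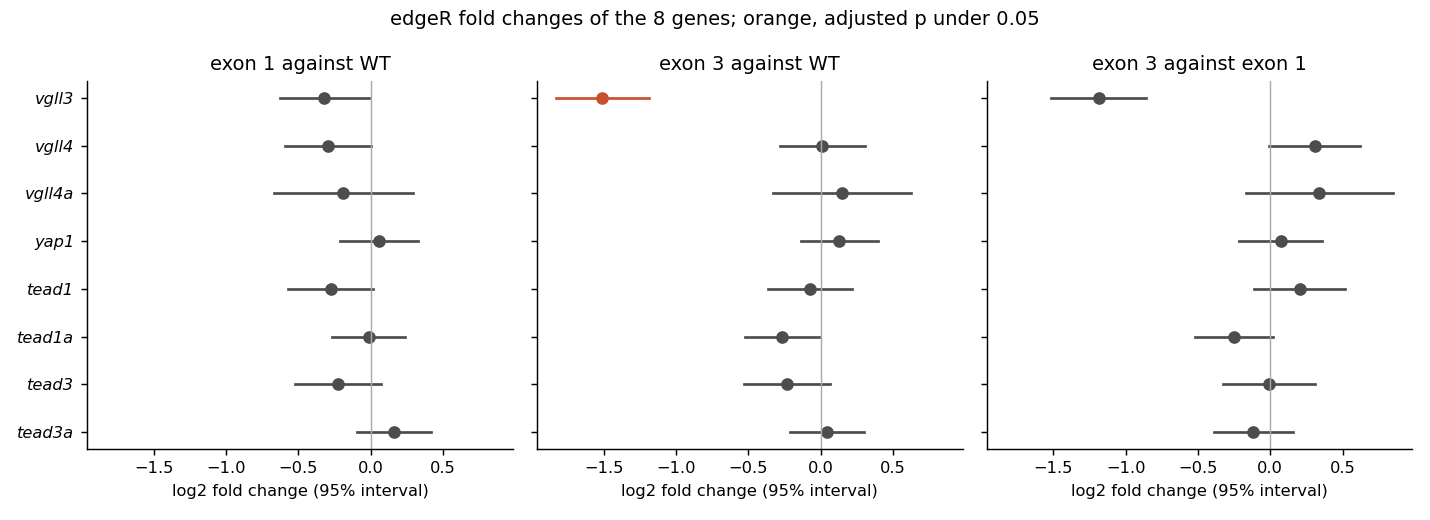
Log2 fold changes (horizontal axes) with 95% intervals of the 8 genes in the 3 comparisons, from edgeR over 10 cultures, with an adjusted p under 0.05 in orange. Only vgll3 in exon 3 cells against WT, at -1.51, is orange, and the exon 3 against exon 1 value of vgll3, at -1.19, is the other point far from 0.

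The relative abundance of the vestigial-like transcripts changed with vgll3. Levels of different genes can be compared only per length of transcript, for which no lengths were used here, so shares and ratios between genes are those of counts. The fold difference between genotypes in a ratio of 2 single genes does not depend on their lengths, whereas shares and ratios to sums, and their differences, do. Of the summed counts of the 3 vgll genes, vgll3 made up 79.5% ± 1.86 in WT (SD, n = 4), 79.1% ± 1.15 in exon 1 cells (SD, n = 3) and 57.5% ± 3.1 in exon 3 cells (SD, n = 3). The share of vgll4 was 18.6% ± 1.65 in WT, 18.8% ± 1.21 in exon 1 cells and 38.3% ± 2.23 in exon 3 cells (SD, n = 4, 3 and 3). The share of vgll4a was 1.88% ± 0.359, 2.08% ± 0.356 and 4.24% ± 0.898 in the same order. The shares of vgll4 and vgll4a were larger in every exon 3 culture than in any other culture. A lower vgll3 count raises both shares by arithmetic, and neither gene passed the test for its own level. Mean vgll4 and vgll4a in exon 3 cells were 101% and 111% of the WT means, and 124% and 127% of the exon 1 means. How far their own levels added to the shares was not tested.

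Counted together, the 3 vgll genes reached 384 ± 31.9 CPM in WT cells (SD, n = 4), 309 ± 41.6 CPM in exon 1 cells and 187 ± 19.3 CPM in exon 3 cells (SD, n = 3 each). The sum of vgll4 and vgll4a was 78.5 ± 5.75, 64.4 ± 8.99 and 79.8 ± 11.5 CPM in the same order. The ratio of vgll3 counts to those of vgll4 and vgll4a together was 3.63, 3.46, 4.48 and 4.05 in WT F1, F9, F4 and FM, 3.61, 3.69 and 4.11 in exon 1 cultures 3, 4 and 6, and 1.34, 1.54 and 1.2 in exon 3 cultures 1, 3 and 4. The exon 1 ratios lay within the WT range, and the exon 3 ratios far below it. In exon 1 culture 4, the culture with the lowest vgll3 of its genotype, vgll4 was lowest too, so that the ratio of the 2 sets of cofactors stood at 3.69.

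The 4 tead genes together gave 191 ± 13.4 CPM in WT (SD, n = 4), 172 ± 9.47 CPM in exon 1 cells and 173 ± 13 CPM in exon 3 cells (SD, n = 3 each). Ranges of this sum overlapped between all genotypes, with 172 to 203 CPM in WT, 162 to 181 CPM in exon 1 cells and 162 to 188 CPM in exon 3 cells. Counts of vgll3 were 1.61 ± 0.204 times those of the tead genes in WT, 1.43 ± 0.258 times in exon 1 cells and 0.622 ± 0.0765 times in exon 3 cells (SD, n = 4, 3 and 3). The corresponding ratio of yap1 to the tead genes was 0.521 ± 0.0532, 0.602 ± 0.0834 and 0.631 ± 0.0755. In WT and exon 1 cells vgll3 thus had more counts than the 4 tead genes together, and in each exon 3 culture fewer, whereas the ratios of yap1 overlapped between the genotypes.

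Within the tead family the shares of tead1, tead3, tead1a and tead3a in WT were 32.6%, 40.5%, 12.7% and 14.2% of counts. In exon 1 cells they were 29.8%, 38.6%, 14% and 17.7%, and in exon 3 cells 34.2%, 38%, 11.7% and 16.2%. The order of the mean shares was tead3, tead1, tead3a and tead1a in every genotype. The share of tead3a was 17.4% to 17.9% in the exon 1 cultures and 13% to 16.7% in the WT cultures. No test of shares was made.

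The balance of each pair of paralogs was tested as a log2 ratio. The ratio of tead3 to tead3a counts was 2.91, 2.23, 3.37 and 3.05 in WT F1, F9, F4 and FM, 2.06, 2.17 and 2.33 in exon 1 cultures 3, 4 and 6, and 2.05, 2.73 and 2.28 in exon 3 cultures 1, 3 and 4. Only WT F9 came into the exon 1 range. The mean log2 ratio differed from WT by -0.39 in exon 1 cells (two-sided exact permutation p = 0.114), and differed by -0.29 in exon 3 cells (exact permutation p = 0.171). With 3 against 4 cultures the smallest p such a test can give is 0.0571, and with 3 against 3 it is 0.1, so no ratio could pass 0.05.

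The ratio of tead1 to tead1a was 2.61 ± 0.485 in WT (SD, n = 4), 2.19 ± 0.546 in exon 1 cells and 2.94 ± 0.189 in exon 3 cells (SD, n = 3 each). The difference of log2 ratios was 0.45 between exon 3 and exon 1 cells (exact permutation p = 0.2) and 0.19 between exon 3 cells and WT (exact permutation p = 0.4). The ratio of vgll4 to vgll4a was 10.1 ± 1.48, 9.24 ± 1.92 and 9.26 ± 1.65 in WT, exon 1 cells and exon 3 cells, with the ranges of the genotypes overlapping. Over the family of 18 tests of 6 ratios in 3 comparisons, the lowest Benjamini-Hochberg adjusted p of the exact permutation tests was 0.343.

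**Figure D3:**
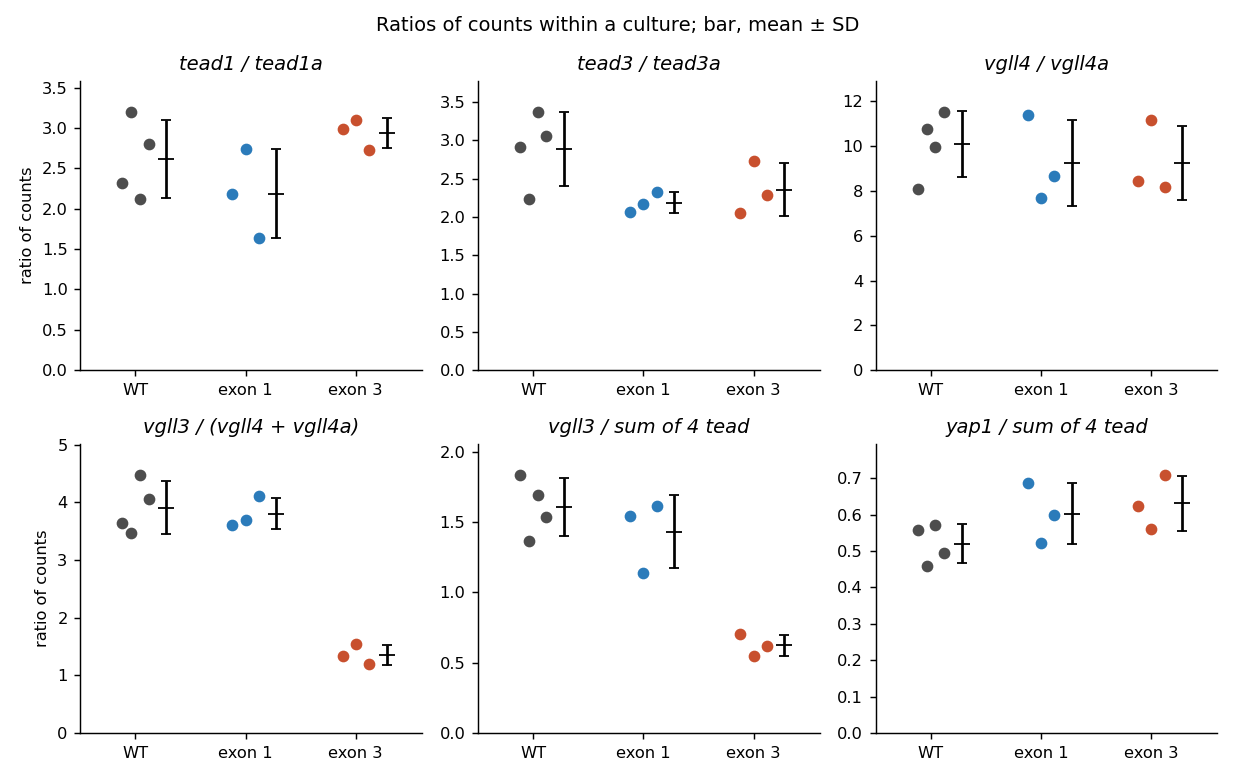
Ratios of counts (vertical axes, from 0) within each culture for 3 pairs of paralogs and for the sums of the cofactor and tead genes, by genotype. Points are cultures and the black marks the mean and SD. The exon 3 cultures lie at 1.2 to 1.54 for vgll3 against vgll4 and vgll4a and at 0.55 to 0.702 for vgll3 against the tead genes, below all other cultures, and the paralog ratios overlap.

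Covariation with vgll3 was examined among cultures of the same genotype, as deviations of log2 CPM (pseudocount 0.5) from the genotype mean. This removes the difference between genotypes, which would otherwise set the correlation. Over the 10 cultures tead1a followed vgll3, with Pearson's r = 0.943 (exact permutation within genotype, p = 0.00347, adjusted over 7 genes 0.0243) and Spearman's rho = 0.903 (exact permutation p = 0.00579, adjusted 0.0405). Exon 1 culture 4 and WT F9, the cultures with the lowest vgll3 of their genotypes, had the lowest tead1a as well, at 20.9 and 21.2 CPM. WT F4, with the highest WT level of vgll3, had the highest tead1a, at 27.1 CPM, and exon 3 culture 1 was highest in its genotype for both genes.

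The size of this correlation held when single cultures were left out, with r from 0.901 to 0.966, but its adjusted p then ran up to 0.0972 and stayed under 0.05 only without exon 1 culture 3 or without exon 1 culture 6. Without exon 1 culture 4 and WT F9, the cultures farthest from the median of vgll3, r was 0.823 (exact permutation p = 0.0417, adjusted 0.292). Only 72 permutations remain there, so that a single gene could not pass 0.05 after adjustment over 7 genes. The genotype means of all 10 cultures were kept, so a difference between genotypes can enter this r. With the 18 libraries as separate points r was 0.565 (permutation p = 0.0471, adjusted 0.11). Over the 7 exon 1 and WT cultures without removal of genotype means r was 0.69 (exact permutation p = 0.0935, adjusted 0.218), and 0.1 without the 2 farthest of these. Passing the threshold therefore depended on which cultures were kept and on summing partner libraries, and fewer cultures also leave fewer permutations.

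The other genes had weaker correlations with vgll3 that did not pass. For tead3a r was -0.654 (exact permutation p = 0.0764, adjusted 0.267), for vgll4 it was 0.598 (exact permutation p = 0.175, adjusted 0.306) and for yap1 it was 0.577 (exact permutation p = 0.164, adjusted 0.306). For tead1, tead3 and vgll4a r was -0.377, -0.15 and 0.209, with adjusted exact permutation p from 0.585 to 0.689. Without exon 1 culture 4 and WT F9, r was -0.143 for tead3a, 0.168 for yap1 and 0.441 for vgll4, so that those of tead3a and yap1 were much nearer to 0. The genotype means of all 10 cultures were kept here too, so a difference between genotypes can enter these values. With 18 libraries as separate points, the correlation of tead3a was -0.701 (permutation p = 0.0065, adjusted 0.0455), in which partner libraries count as independent.

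**Figure D4:**
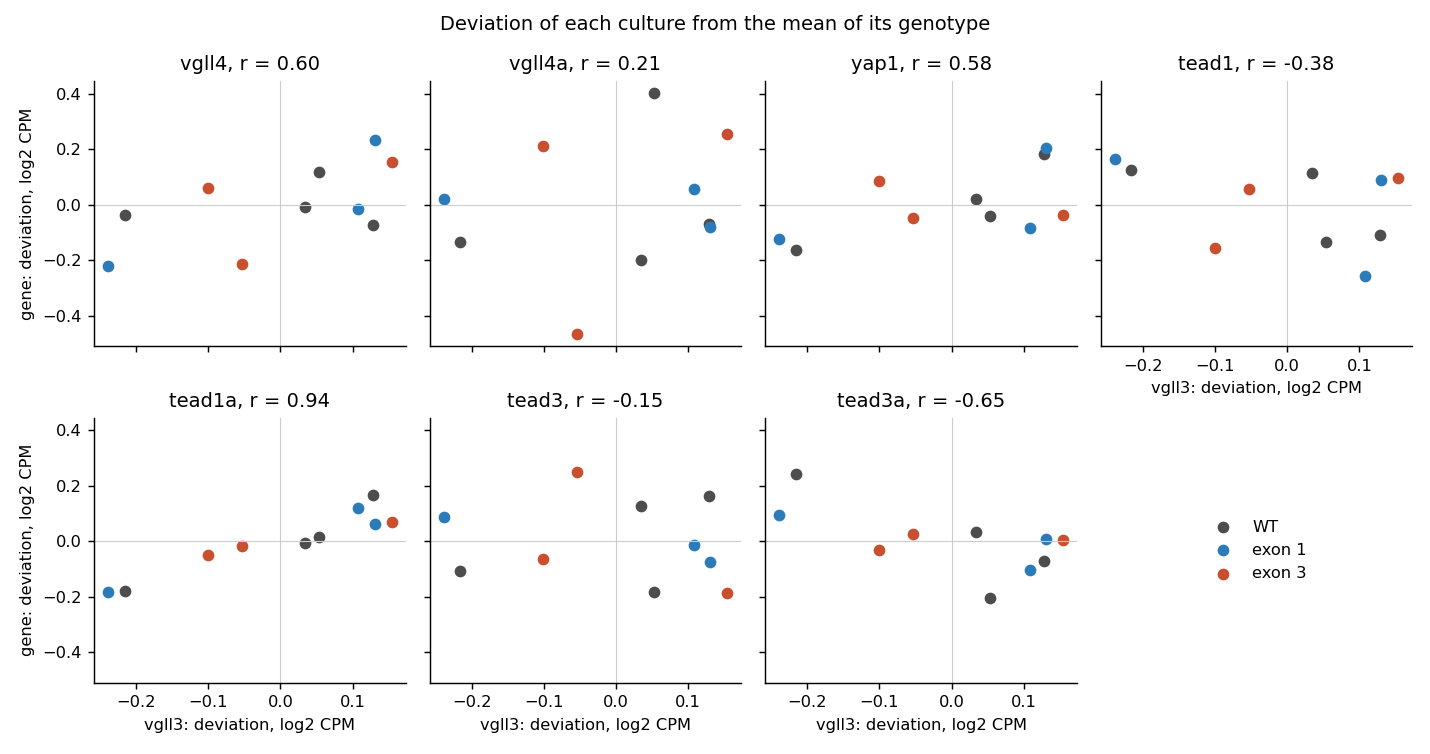
Deviation of each culture from its genotype mean in log2 CPM for vgll3 (horizontal axes) and each of the other 7 genes (vertical axes), coloured by genotype, with Pearson's r over 10 cultures. The points of tead1a rise with vgll3 at r = 0.94, and those of tead3 and vgll4a scatter at -0.15 and 0.21.

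Among the 21 pairs formed by the other 7 genes, 2 had an adjusted exact permutation p under 0.05 over 10 cultures. Deviations of tead1 and tead3a moved together, with r = 0.751 (exact permutation p = 0.00231, adjusted 0.0365; rho = 0.879, adjusted 0.178). Deviations of vgll4 and tead3 moved in opposite directions, with r = -0.769 (exact permutation p = 0.00347, adjusted 0.0365; rho = -0.709, adjusted 0.178). Without the 2 cultures farthest from the median of the first gene r was 0.816 and -0.871. The genotype means of all 10 cultures were kept there, so a difference between genotypes can enter both values. The adjusted p of neither pair stayed under 0.05 when any 1 culture was left out. So few permutations remain there that a single pair could not pass 0.05 after adjustment over 21 pairs. That adjusted p therefore cannot show whether either correlation depends on 1 culture. In the same fits r ran from 0.716 to 0.841 for tead1 with tead3a and from -0.85 to -0.62 for vgll4 with tead3. Over 18 libraries r was 0.616 (adjusted permutation p = 0.225) for the first pair and -0.162 (adjusted permutation p = 0.586) for the second.

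Technical partner libraries set a scale for these small deviations. Over the 8 cultures with libraries A and B, the median absolute log2 difference between partners was 0.08 for vgll3, 0.09 for tead1a and 0.23 for tead3a, and between 0.13 and 0.17 for the other 5 genes. Partners differed by more than 2 counting SE in 7 of 8 pairs for yap1, in 6 of 8 for vgll4, tead3 and tead3a, in 5 of 8 for vgll3 and tead1, and in 2 of 8 for tead1a and vgll4a. The largest vgll3 differences were in WT FM, with 377 CPM in A and 228 CPM in B, and in exon 1 culture 3, with 220 CPM in A and 328 CPM in B. In those pairs tead1a hardly differed, with 24.4 and 23.8 CPM in WT FM and 24.8 and 26.3 CPM in exon 1 culture 3. The tie between tead1a and vgll3 across cultures was thus not seen between these partners. The largest tead1a difference was in exon 1 culture 4, with 18.3 CPM in A and 24 CPM in B, where vgll3 was 199 and 213 CPM. The low tead1a of that culture, which enters the correlation with vgll3, thus came mostly from library A. In exon 1 library 3A yap1, tead1, tead3 and tead3a were all higher than in 3B, with tead1 at 67.6 against 43.6 CPM, tead3 at 78 against 51 CPM and tead3a at 38.6 against 24 CPM, while vgll3 was lower.

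**Figure D5:**
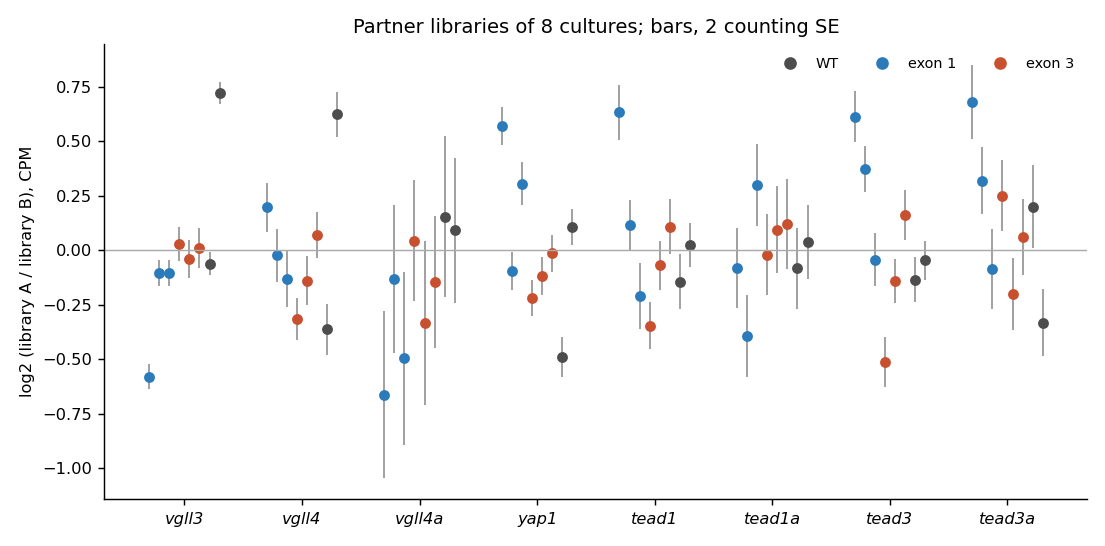
Log2 ratio of library A to library B in CPM (vertical axis) for the 8 genes in the 8 cultures with partner libraries, coloured by genotype, with bars of 2 counting SE. The outermost vgll3 points are WT FM at 0.72 and exon 1 culture 3 at -0.58, and most of the vgll3 and tead1a points lie nearer to 0.

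Genes most like vgll3 over all 10 cultures were picked by Pearson's r of log2 CPM among 9728 named genes with a mean of at least 5 CPM, with no p because the genotype difference enters it. The highest were ampd3b (LOC107372666), an AMP deaminase, at r = 0.954, glula (LOC107383951), a glutamine synthetase, at 0.953, exo1, an exonuclease of DNA repair, at 0.913, adra1b, an adrenergic receptor, at 0.91, and med15, a Mediator subunit, at 0.908. Within genotypes their r was 0.44, 0.498, 0.176, 0.435 and 0.826. For glula the level in WT was 423 ± 39.6 CPM (SD, n = 4), 367 ± 64.8 CPM in exon 1 cells and 218 ± 21.2 CPM in exon 3 cells (SD, n = 3 each). The most opposite were kctd3 (LOC107381218) at -0.919, kif1aa (LOC107396628) at -0.912, atf2 at -0.91, strn4 at -0.904 and atf7b (LOC107384039) at -0.891. Within genotypes their r was -0.372, -0.715, -0.434, 0.068 and -0.314, and that of strn4 was near 0. By this measure tead1a stood at rank 29 of 9728 with r = 0.834, and at rank 6 by the deviations within genotypes. The other members stood between rank 1978, for tead3, and rank 7386, for yap1.

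Genes around these cofactors were read from 3 lists. Of 62 Hippo pathway genes tested, 1 fell in exon 1 cells against WT and 0 rose, and in the other 2 comparisons edgeR called 0. Of all genes it called 0.159% in exon 1 cells and 0.238% in exon 3 cells against WT and 0.0122% between the mutants. At an unadjusted p under 0.05 there were 6 of 62 in exon 1 cells and 7 in exon 3 cells against WT and 10 between the mutants, beside 8.48%, 12.3% and 8.48% of all genes. DESeq2 called 2, 3 and 2, beside 1.55%, 3.10% and 1.07% of all genes. The gene that fell was rassf2b (LOC107394183), of a family whose members bind the Hippo kinases. It stood at 0.703, 0.601 and 0.605 CPM in exon 1 cells, at 2.32, 1.69 and 2.44 CPM in exon 3 cells and at 3.4, 2.64, 2.3 and 2.24 CPM in WT. All exon 1 values were below all others. Ranges that do not overlap were found for 9.28% of all genes in exon 1 cells against WT and for 11.2% between the mutants. Its log2 fold change against WT was -2.04 ± 0.26 (SE; edgeR adjusted p = 0.019), and the list's count fell to 0 without any 1 of the 3 exon 1 cultures, with the WT libraries regrouped and with F1 and F9 as the only WT cultures. With the 18 libraries as separate samples it was 2. The medians of the list's log2 fold changes were -0.04, 0.1 and 0.19 in exon 1 cells and exon 3 cells against WT and between the mutants, beside 0.02, 0.01 and -0.01 over all genes.

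The Hippo genes with the smallest p in exon 3 cells were strn4, a striatin scaffold of a phosphatase complex that acts on the Hippo kinases, and taok1b (LOC107386855), a kinase upstream of them. For strn4 the level in WT was 54.5 ± 1.94 CPM (SD, n = 4), 55.4 ± 3.99 CPM in exon 1 cells and 73.2 ± 4.7 CPM in exon 3 cells (SD, n = 3 each), with a log2 fold change against WT of 0.43 ± 0.09 (SE; edgeR adjusted p = 0.109). The level of taok1b was 38.4 ± 2.57, 44.1 ± 5.45 and 53 ± 6.73 CPM in the same order (log2 fold change 0.46 ± 0.12, SE; edgeR adjusted p = 0.163). Neither passed.

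Of 41 tested targets of Yap and Tead, known as such mostly from mammals, edgeR called 0 in each comparison, beside 0.159%, 0.238% and 0.0122% of all genes. At an unadjusted p under 0.05 there were 9 in exon 1 cells and 8 in exon 3 cells against WT and 8 between the mutants, beside 8.48%, 12.3% and 8.48% of all genes. DESeq2 called 2, 3 and 0, beside 1.55%, 3.10% and 1.07% of all genes. In exon 1 cells 31 of the 41 had a log2 fold change below 0, with a median of -0.25, against 46.2% of all genes below 0. In exon 3 cells it was 26 of 41, with a median of -0.11, against 48.5%, and both comparisons share the WT cultures. Between the mutants it was 11 of 41, with a median of 0.11, against 51.1%. The smallest p in exon 1 cells was that of thbs1b (LOC107377820), a matrix thrombospondin, at 104 ± 23.5 CPM in WT and 37.2 ± 2.89 CPM in the mutant (SD, n = 4 and 3; log2 fold change -1.49 ± 0.36, SE; edgeR adjusted p = 0.21). In exon 3 cells it was that of gadd45b, a stress-induced growth regulator, at 156 ± 7.05 CPM in WT and 103 ± 13.8 CPM in the mutant (SD, n = 4 and 3; log2 fold change -0.59 ± 0.13, SE; edgeR adjusted p = 0.109). Next to it stood nuak2, a kinase, at 37.6 ± 12.1 CPM in WT and 13 ± 4.21 CPM in the mutant (SD, n = 4 and 3; log2 fold change -1.53 ± 0.34, SE; edgeR adjusted p = 0.112).

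Of 28 tested cofactors of Tead complexes, edgeR called 0 in each comparison, beside 0.159%, 0.238% and 0.0122% of all genes. With an unadjusted p under 0.05 there were 4, 5 and 4, beside 8.48%, 12.3% and 8.48% of all genes. DESeq2 called 0, 1 and 0, beside 1.55%, 3.10% and 1.07% of all genes. The medians of their log2 fold changes were -0.00, 0.2 and 0.25 in exon 1 cells and exon 3 cells against WT and between the mutants, beside 0.02, 0.01 and -0.01 over all genes. The smallest p in exon 1 cells was that of fosl2, an AP-1 subunit, at 298 ± 46.7 CPM in WT and 182 ± 32.7 CPM in the mutant (SD, n = 4 and 3; log2 fold change -0.71 ± 0.22, SE; edgeR adjusted p = 0.362). In exon 3 cells it was that of runx3, a Runt transcription factor, at 63 ± 10.2 CPM in WT and 120 ± 62.1 CPM in the mutant (SD, n = 4 and 3; log2 fold change 0.93 ± 0.27, SE; edgeR adjusted p = 0.198). Exon 3 culture 3 had 192 CPM of runx3 and cultures 1 and 4 had 80.2 and 89 CPM, above a WT range of 49.2 to 73.6 CPM. Without culture 3 the log2 fold change was 0.42 ± 0.16 (SE; edgeR adjusted p = 0.497). Neither gene passed.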

How the data were processed

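The deposited values are read counts for each gene in 18 libraries, left by the authors as whole numbers without normalization. Tools named in the submitters' processing notes, without roles, are STAR 2.7.6a, edgeR 3.32.1, Trim Galore 0.6.4, FastQC 0.11.8 and cutadapt 3.4. No build, annotation, strand setting or rule for reads shared by paralogs is given in the sources used here, so counts of near-identical paralogs are uncertain. Per the labels' protocols, polyadenylated RNA was sequenced from cultures near confluence.

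The partner libraries of a culture were added together. All genes passing filterByExpr by genotype were fitted over 10 cultures with edgeR 4.0.16 (R 4.3.3, limma 3.58.1), with TMM scaling and robust quasi-likelihood dispersions. P-values were adjusted by Benjamini-Hochberg over 16354 genes, with a threshold of 0.05. Fold changes use a prior count of 0.125. An SE is the absolute log2 fold change over the square root of F. Levels are TMM-scaled CPM, except those of marker genes, which are CPM by library total. Counting errors cover sampling of reads only, and totals ran from 15236208 to 28146560. Alternatives included DESeq2 1.42.0, other scaling and filters, single libraries, other groupings of WT libraries and each culture left out. Another grouping of WT libraries joined F4A to FMB, F4B to FMA and F1 to F9.

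The members and lists were chosen with earlier results of these data known. Named genes besides the members were the 5 highest and 5 lowest correlations with vgll3, and genes from each list. The latter were those past the test or otherwise genes with the smallest p in a comparison with WT. Targets and cofactors picked by their p between the mutants are not described. The labels name no batch. Exon 1 and exon 3 cultures share the numbers 3 and 4, without a label that pairs them.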

Additional observations from a re-analysis of the deposited data

How the results depend on the processing

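The fall of vgll3 in exon 3 cells against WT was called under all 19 alternatives. The exon 1 value was called under none of 19, and ran from -0.39 to -0.21. Counts of called genes in exon 1 cells against WT, exon 3 cells against WT and between the mutants were 26, 39 and 2. They were 342, 567 and 278 with 18 libraries as separate samples, 253, 507 and 174 with DESeq2, and 6, 6 and 1 with WT libraries regrouped. With WT F1 and F9 as the only WT cultures the first 2 counts were 14 and 15. The second count was 12 with F1 and F9 summed and 17 with the 2 genotypes fitted alone, and the third was 1 with the 2 genotypes alone and 6 without exon 1 library 3A. Leaving out 1 culture gave 5 to 56, 7 to 38 and 1 to 8. Between the mutants vgll3 passed in 6 of 21 alternatives. These were -1.20 over 18 libraries, -1.29 without library 3A, and -1.19 with DESeq2, with no filter, with upper-quartile factors and without WT F9. With 1 culture left out it ran from -1.30 to -1.12, and of these fits only that without WT F9 passed. With the replicate block over the cultures numbered 3 and 4 in both mutants, 0 genes were called and vgll3 was -1.20 (edgeR adjusted p = 0.204), and on the same 4 cultures without the block, an alternative chosen after seeing the data, 0 were called and it was -1.22. Deviations from the genotype mean correlated at 0.121 between exon 1 and exon 3 cultures of the same number. With 2 cultures per genotype both pairs must give this same value, and no reference for it was computed.

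None of the 21 values of the other 7 genes was called under any alternative. There were 19 alternatives for each comparison with WT and 21 between the mutants, which gave 413 values over the 7 genes. Of the 21 values 15 kept their direction, with 20 changes of sign in the rest. In exon 1 cells against WT, yap1 turned to -0.057 without library 3A and tead1a to 0.065 with F1 and F9 as the only WT cultures, and they ran from -0.050 to 0.12 and from -0.078 to 0.074 with 1 culture left out. In exon 3 cells against WT, vgll4 turned to -0.031 and vgll4a to -0.0014 with F1 and F9 alone, and vgll4 to -0.0013 with upper-quartile factors. With 1 culture left out vgll4 ran from -0.070 to 0.11 and tead3a from -0.020 to 0.13. Between the mutants tead3 turned to 0.00036 over 18 libraries, 0.091 without library 3A, 0.069 with the replicate block and 0.075 without it, and ran from -0.14 to 0.080 with 1 culture left out. Of 18 log2 ratio differences 14 kept their direction. The vgll4 to vgll4a difference between the mutants turned to -0.016 over 18 libraries (-0.13 to 0.17 with 1 culture left out), and that of vgll3 to vgll4 and vgll4a in exon 1 cells to 0.099 with F1 and F9 alone (-0.091 to 0.034). Between the mutants, with 1 culture left out, tead3 to tead3a ran from -0.014 to 0.19 and yap1 to the tead genes from -0.031 to 0.17. The tead3 to tead3a difference in exon 1 cells passed over 18 libraries, at -0.44 (exact permutation, adjusted p = 0.0234), as did the ratios of vgll3 to vgll4 and vgll4a and to the tead genes in exon 3 cells against WT and against exon 1 cells (adjusted p = 0.00974 each, exact permutation). Partners count as independent there. The correlation with vgll3 turned to 0.12 for tead1 without the 2 farthest cultures, with the genotype means of all 10 cultures kept. It turned to -0.022 for vgll4a with CPM by library total. For tead3 it ran from -0.39 to 0.089 with 1 culture left out. Leaving out cultures for correlations, and exon 3 culture 3 for runx3, was chosen after seeing the data. The cause of these changes was not tested. The member with the fewest counts was vgll4a, at 78 to 228 counts a library.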
